A study of Mus musculus with 38 samples.

Results

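The 37 genes described here encode chromatin and transcription regulators that human genetics has linked to autism and related neurodevelopmental conditions. They were chosen by gene symbol alone, 37 of the 54165 genes in the count table, and every symbol matched exactly 1 row. The list holds remodelers of the CHD and SWI/SNF (BAF) families, writers, erasers and readers of histone marks, the DNA methyltransferase Dnmt3a, the methyl-CpG-domain protein Mbd5, proteins that work with corepressors, Mediator subunits, and sequence-specific transcription factors. RNA was measured in the prefrontal cortex (PFC) and the hypothalamus of adult FVB/NJ mice of both sexes, as 38 libraries in 8 groups. The PFC was represented by 5 wild-type (WT) females, 5 Ube3a2X females, 5 WT males and 5 Ube3a2X males, and the hypothalamus by 4 WT females, 5 Ube3a2X females, 4 WT males and 5 Ube3a2X males. Ube3a2X mice are homozygous for a transgene that adds tagged copies of Ube3a, the ubiquitin ligase gene of the interval duplicated in a chromosomal form of autism, and the WT mice were their littermates. The transgene acts whichever parent passed it on. The hypothalamus was excised and PFC was sampled as micropunches. Cells were not sorted, so each library mixes neurons, glia and vessels. The question set by the design was whether the extra copies act differently in males and females, which the interaction of sex and genotype measures within each tissue.

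Regulators of this kind act on many genes at once. CHD and BAF remodelers use ATP to slide or evict nucleosomes. KMT and SET-domain enzymes add methyl groups to histone tails and KDM enzymes remove them, and PHD-finger proteins read those marks. Mediator passes signals from DNA-bound factors to RNA polymerase II. In the forebrain many of these proteins are needed for neurons to be produced, to migrate and to mature, and loss of a single working copy is a known cause of intellectual disability and autism.

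The promoters of 5 members are printed here because these genes were called between the tissues in the results that follow and span the range from few to many CpGs, Mef2c, Sox5 and Bcl11a being higher in PFC and Kmt2a and Kmt2c in the hypothalamus. Each window runs 5′ to 3′ from 250 bases before to 30 bases after a RefSeq transcription start on GRCm38.p6, with each CpG in capitals. The table held a window for 30 of the 37 members.
Mef2c: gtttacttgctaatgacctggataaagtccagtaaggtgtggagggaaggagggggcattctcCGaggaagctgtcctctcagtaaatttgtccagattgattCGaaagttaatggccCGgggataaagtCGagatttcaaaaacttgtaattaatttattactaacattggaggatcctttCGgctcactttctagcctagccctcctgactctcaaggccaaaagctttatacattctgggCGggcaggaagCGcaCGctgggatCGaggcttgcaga
Sox5: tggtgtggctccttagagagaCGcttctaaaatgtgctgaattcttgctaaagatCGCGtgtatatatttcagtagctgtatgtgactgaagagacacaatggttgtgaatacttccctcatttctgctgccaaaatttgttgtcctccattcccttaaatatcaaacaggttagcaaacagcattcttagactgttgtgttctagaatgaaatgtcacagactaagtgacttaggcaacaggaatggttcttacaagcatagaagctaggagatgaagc
Bcl11a: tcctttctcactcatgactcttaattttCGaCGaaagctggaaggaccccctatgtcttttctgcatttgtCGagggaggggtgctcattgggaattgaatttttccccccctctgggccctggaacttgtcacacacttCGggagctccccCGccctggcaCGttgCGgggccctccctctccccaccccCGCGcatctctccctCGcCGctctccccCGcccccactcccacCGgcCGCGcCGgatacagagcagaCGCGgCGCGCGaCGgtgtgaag
Kmt2a: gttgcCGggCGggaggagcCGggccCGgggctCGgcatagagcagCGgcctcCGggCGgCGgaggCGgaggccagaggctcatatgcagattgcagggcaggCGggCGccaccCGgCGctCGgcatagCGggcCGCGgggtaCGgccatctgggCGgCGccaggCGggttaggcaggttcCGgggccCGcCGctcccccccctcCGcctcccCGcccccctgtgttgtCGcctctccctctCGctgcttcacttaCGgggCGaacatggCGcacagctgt
Kmt2c: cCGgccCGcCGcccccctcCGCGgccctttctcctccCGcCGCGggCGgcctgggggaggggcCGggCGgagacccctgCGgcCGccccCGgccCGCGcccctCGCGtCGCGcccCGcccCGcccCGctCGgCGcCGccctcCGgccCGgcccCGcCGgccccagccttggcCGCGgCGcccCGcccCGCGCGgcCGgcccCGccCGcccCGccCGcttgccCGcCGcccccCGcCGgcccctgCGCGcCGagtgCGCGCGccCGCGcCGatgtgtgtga

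The Mef2c window (chr13:83523406-83523685, plus strand) holds 9 CpGs and is the richest of the 3 listed for that gene, the other two having 1 and 4. The Sox5 window (chr6:143947077-143947356, minus strand) holds 3. The Bcl11a window (chr11:24080445-24080724, plus strand) holds 22, that of Kmt2a (chr9:44881260-44881539, minus strand) 32 and that of Kmt2c (chr5:25498754-25499033, minus strand) 55. As many CpGs as in the Kmt2c window were found in 0.11% of the 32851 windows of the genome, and as many as in the Sox5 window in 74.5%. Over the 44 windows of the members the median was 18.5 CpGs, against 6 over all windows. The letters GGGCGG, read on both strands, were in 31 of the 44 windows (70.5%) and in 34.7% of all windows.

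The members also differ in the base composition of their transcripts, to which the PFC results refer. The 120-base coding stretches that follow come from the longest coding exon of the longest protein-coding transcript in GENCODE vM21, at the point where the stretch is closest to the GC content of the whole coding sequence, with G and C in capitals.
Deaf1: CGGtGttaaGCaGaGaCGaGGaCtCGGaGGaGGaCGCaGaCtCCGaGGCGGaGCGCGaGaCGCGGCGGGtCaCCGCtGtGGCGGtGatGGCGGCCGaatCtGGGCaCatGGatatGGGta
Phf2: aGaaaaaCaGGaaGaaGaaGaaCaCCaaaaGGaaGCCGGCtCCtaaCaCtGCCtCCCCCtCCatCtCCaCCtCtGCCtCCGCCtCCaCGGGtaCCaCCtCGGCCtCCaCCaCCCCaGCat
Med13: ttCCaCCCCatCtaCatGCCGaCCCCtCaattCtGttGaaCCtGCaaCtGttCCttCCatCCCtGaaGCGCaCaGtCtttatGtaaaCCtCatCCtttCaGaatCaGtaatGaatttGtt
Mef2c: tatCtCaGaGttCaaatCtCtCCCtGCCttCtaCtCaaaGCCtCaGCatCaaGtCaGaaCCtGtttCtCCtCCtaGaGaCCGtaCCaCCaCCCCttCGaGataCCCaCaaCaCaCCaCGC

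The Deaf1 stretch (chr7:141327333-141327452 on the minus strand, exon 1 of 11, GRCm38) has 79 G or C of 120 bases and the Phf2 stretch (chr13:48804596-48804715 on the minus strand, exon 21 of 22) 71. The Med13 stretch (chr11:86298831-86298950 on the minus strand, exon 16 of 30) has 53 and the Mef2c stretch (chr13:83662327-83662446 on the plus strand, exon 12 of 12) 61. Over the longest annotated transcript, GC content was 54.4% for Deaf1, 57.1% for Phf2, 40.5% for Med13 and 40.8% for Mef2c. Across the 37 members it ran from 40.5% in Med13 to 59.6% in Kdm6b, with a median of 49.2% against 49.6% over the 14205 expressed genes with an annotated transcript. The members are long: the median transcript was 8100 bases against 3469 over those genes, and 36 of the 37 exceeded that genome value, the exception being Deaf1. They lie on 17 chromosomes, none of them the X or Y. The spans of Adnp and Foxp1 overlap another coding gene model on the same strand, those of Ash1l, Mbd5 and Ankrd11 one on the opposite strand, and many others, Kdm6b, Phf2 and Dnmt3a included, an antisense gene. The strand setting of the counting was not stated, so reads there could be shared.

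Libraries held 36.9 to 69.1 megareads counted in PFC and 39.05 to 381 in the hypothalamus, so each member was read at least 368 times in every library. Levels are given as CPM, a library's reads of a gene scaled to a common library size, after normalization over all 38 libraries. The targeted gene followed the labels: Ube3a measured 190.2 to 268 CPM in WT and 663 to 2239 in Ube3a2X PFC, and 108 to 350.2 against 726 to 1684 in the hypothalamus. Xist and Ddx3y matched the labelled sex in all 38. Markers of cortical excitatory neurons summed to 5530.5 to 10788 CPM in PFC and 281 to 585 in the hypothalamus, and 9 markers of hypothalamic neurons to 479.8 to 2176 CPM in the hypothalamus against at most 3.87 in PFC. Markers of pituitary, a gland that adjoins the hypothalamus, summed to 4802 CPM in the hypothalamic WT female 471 and 15.9 to 919 in the other hypothalamic libraries, and exceeded the markers of hypothalamic neurons in 471 and in the Ube3a2X female 468 of that tissue.

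A set of 5 libraries stood apart on the members themselves, their members lying by a median of more than 0.2 log2 units from the median of their own group. In the hypothalamic WT female 471, 35 of the 37 members were below the group median, and 34 had their lowest hypothalamic value there; the median distance was 0.74. In this library 37.5% of bases fell in coding sequence, where the other hypothalamic libraries had 46.2 to 51.1%, and it held the most pituitary marker RNA; the part of either in its members' levels was not tested. In the hypothalamic Ube3a2X male 238, 35 members were above the group median and 29 were at their highest. In PFC, the Ube3a2X female 468 had 33 members above its group and 24 at their highest, the Ube3a2X male 258 had 30 above, and the WT female 397 had 33 above. Library 468 was also the one with the fewest reads and the lowest AT dropout, a Picard measure of missing AT-rich sequence (10.6 against 14.4 to 22.1 in the other PFC libraries). The within-tissue tests were also run without them, with 27 members passing the filters in PFC and 23 in the hypothalamus. Because the members' own levels chose these libraries, no fit without them is an independent check of the members.

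The most abundant member per kilobase of exon was Chd3, the ATPase of the NuRD complex, at a median of 87.2 CPM per kb in PFC and 62.99 in the hypothalamus. Smarcc2, a core BAF subunit, had 58.6 and 53.3, and Adnp, a homeodomain protein that works with chromatin remodelers, had 32.8 and 33.6. Mef2c was second in PFC at 71.7 CPM per kb and number 33 in the hypothalamus at 2.71. Asxl3, a Polycomb-related protein, was the scarcest in both, at 1.14 and 1.15 CPM per kb. The median over the members of their mean level was 7.90 CPM per kb in PFC and 7.31 in the hypothalamus, against 5.94 in either tissue over 14205 expressed genes.

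The levels of the other members, as the median CPM per kb of exon in PFC and then in the hypothalamus, are given by role. Among remodelers and their partners these were Arid1b (7.44 and 5.74), Chd2 (5.02 and 6.92), Chd8 (6.37 and 8.14) and Pogz (7.05 and 8.52). Among enzymes that methylate histones they were Kmt2a (9.47 and 16.5), Kmt2c (4.27 and 8.23), Kmt5b (3.87 and 3.88), Ash1l (15.2 and 13.7), Setd2 (8.29 and 9.68), Setd5 (8.30 and 8.70), Nsd1 (10.5 and 11.4) and Ehmt1 (3.49 and 4.01). The demethylases and PHD-finger proteins had Kdm5b (4.46 and 4.57), Kdm6b (2.44 and 5.23), Phf2 (7.87 and 10.8), Phf12 (9.32 and 10.5) and Phf21a (4.07 and 4.78). Each of these classes spanned low and moderate levels, and none came near Chd3. The DNA methylation, corepressor and acetylation proteins had Dnmt3a (4.43 and 5.47), Mbd5 (3.93 and 3.98), Tbl1xr1 (14.8 and 6.63), Hdac4 (4.02 and 3.004), Ankrd11 (13.7 and 13.5) and Trrap (5.86 and 7.32). The Mediator subunits had Med13 (12.003 and 11.2) and Med13l (7.36 and 4.44), and the transcription factors and cofactors Bcl11a (6.46 and 1.58), Foxp1 (9.32 and 2.27), Tcf4 (18.1 and 5.12), Tcf20 (15.4 and 17.1), Deaf1 (7.69 and 7.25), Myt1l (22.1 and 12.6) and Sox5 (4.91 and 2.68).

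Most members differed between the tissues. A total of 24 of the 37 members passed the test between PFC and hypothalamus (edgeR quasi-likelihood test, adjusted p under 0.05), 14 of them higher in PFC (32.8% of all genes) and 10 in the hypothalamus (35.6%). The background was of the same size, since 9725 of the 14219 genes tested, or 68.4%, passed, and the members' share of 64.9% does not set them apart. The median log2 fold change of the members was 0.05, and of all genes -0.02. Within the list, the sequence-specific factors made up the top: Mef2c, Foxp1, Bcl11a and Tcf4 led. The members most in favour of the hypothalamus were histone-modifying enzymes, Kdm6b, Kmt2c and Kmt2a. In bulk tissue, fewer cells of a type and less RNA per cell cannot be told apart.

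**Figure D1:**
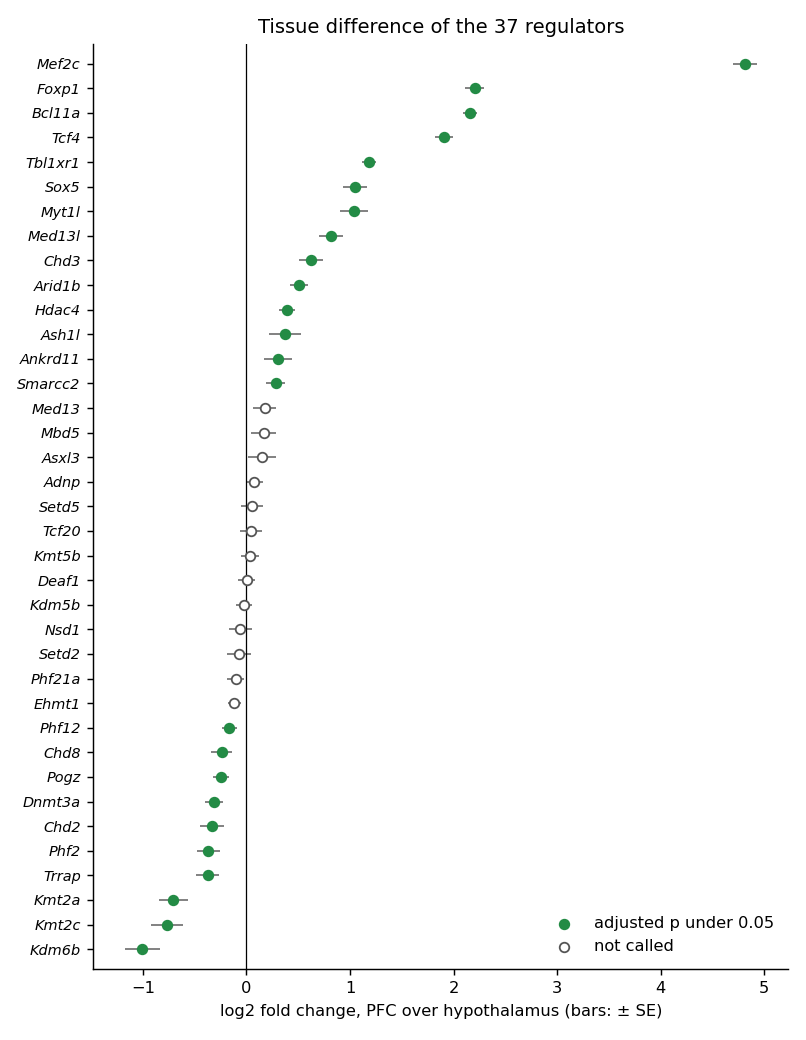
Log2 fold change of each of the 37 members between PFC and hypothalamus on the horizontal axis, with bars for ± SE and filled points for adjusted p under 0.05. The 14 called members to the right of 0 run from Smarcc2 at 0.28 to Mef2c at 4.81, and the 10 to the left from Phf12 at -0.16 to Kdm6b at -1.004.

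Mef2c, a MADS-box factor of excitatory cortical neurons, had lowest 893, median 1126 and highest 1719 CPM over the 20 PFC libraries and lowest 23.4, median 42.7 and highest 52.2 CPM over the 18 of the hypothalamus. The groups did not come near each other, and the fit gave a log2 fold change of 4.81 (SE 0.11, adjusted p = 4.1e-28). Bcl11a, a zinc-finger repressor of cortical projection neurons, had lowest 69.7, median 85.1 and highest 116 CPM in PFC and lowest 18.5, median 20.8 and highest 22.9 CPM in the hypothalamus, a log2 fold change of 2.16 (SE 0.07, adjusted p = 3.36e-24). Foxp1, a forkhead factor of cortex and striatum, had lowest 101, median 128 and highest 208 CPM and lowest 23.8, median 31.3 and highest 37.3 CPM, a log2 fold change of 2.20 (SE 0.09, adjusted p = 3.64e-21). Every PFC library lay above every hypothalamic library for these 3 genes.

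Tcf4, a basic helix-loop-helix factor that pairs with proneural partners, had lowest 415, median 495 and highest 705 CPM in PFC and lowest 93.7, median 140.1 and highest 173 CPM in the hypothalamus, a log2 fold change of 1.91 (SE 0.09, adjusted p = 8.23e-20). Sox5, an HMG-box factor of deep-layer neurons, differed by 1.04 (SE 0.11, adjusted p = 6.23e-10) and Myt1l, a zinc-finger factor that represses non-neuronal genes, by 1.04 (SE 0.14, adjusted p = 3.09e-08). Libraries of the tissues were also fully separate for Tcf4, Sox5, Myt1l, Tbl1xr1 and Hdac4. How many of all genes separate this fully was not counted, so this does not set the members apart. Of the remaining sequence-specific members, Deaf1, which binds CpG-containing motifs, and Tcf20, a nuclear coregulator, did not pass, at 0.00 (SE 0.08) and 0.04 (SE 0.10). Med13l and Med13, paralogs in the kinase module of Mediator, parted: Med13l was 0.82 (SE 0.12) higher in PFC, and Med13 did not pass at 0.17 (SE 0.11).

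On the hypothalamic side, Kdm6b, which removes methyl groups from a repressive lysine of histone H3, had lowest 11.2, median 16.9 and highest 32.7 CPM in PFC and lowest 28.7, median 36.4 and highest 46.3 CPM in the hypothalamus, a log2 fold change of -1.004 (SE 0.17, adjusted p = 3.11e-06). The ranges overlapped, as 2 PFC libraries exceeded the lowest hypothalamic value. Kmt2a, which methylates the promoter-associated lysine of the same histone, had lowest 129, median 158 and highest 204 CPM in PFC and lowest 102, median 275 and highest 404 CPM in the hypothalamus, a log2 fold change of -0.71 (SE 0.14, adjusted p = 2.91e-05). Its relative Kmt2c had lowest 75.5, median 86.7 and highest 134 CPM and lowest 54.3, median 167 and highest 239 CPM, a log2 fold change of -0.77 (SE 0.15, adjusted p = 3.37e-05). For both, the only hypothalamic value inside the PFC range or below it was that of WT female 471, the library set apart. Without the 5 libraries set apart the differences were -0.85 for Kmt2a and -0.98 for Kmt2c. These libraries were chosen by the members' own levels, and 471 was low for both genes, so the larger values are no separate check.

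Dnmt3a, the de novo DNA methyltransferase, had lowest 67.4, median 73.8 and highest 83.99 CPM in PFC and lowest 47.2, median 91.1 and highest 115 CPM in the hypothalamus, a log2 fold change of -0.31 (SE 0.09, adjusted p = 0.00177); again 471 alone lay far below the other hypothalamic libraries. The other members higher in the hypothalamus were the acetyltransferase scaffold Trrap (-0.37, SE 0.11), the PHD-finger demethylase Phf2 (-0.37, SE 0.11), the remodelers Chd2 (-0.33, SE 0.12) and Chd8 (-0.24, SE 0.10), the HP1-binding zinc-finger protein Pogz (-0.25, SE 0.07) and the Sin3-associated Phf12 (-0.16, SE 0.07). Higher in PFC, besides those named, were the corepressor exchange factor Tbl1xr1 (1.18, SE 0.07), the remodeler Chd3 (0.62, SE 0.12), the BAF subunits Arid1b (0.51, SE 0.09) and Smarcc2 (0.28, SE 0.09), the class IIa deacetylase Hdac4 (0.39, SE 0.08), the histone methyltransferase Ash1l (0.37, SE 0.15) and Ankrd11 (0.31, SE 0.14), which recruits deacetylases. For Ankrd11 the medians were close, at 227 CPM in PFC and 223 in the hypothalamus. Its call was lost when the RNA integrity number was left out of the fit. The 10 not yet named did not pass: Adnp (0.08, SE 0.08), Setd5 (0.05, SE 0.10), Setd2 (-0.07, SE 0.12), Nsd1 (-0.06, SE 0.11), Kmt5b (0.04, SE 0.08), Ehmt1 (-0.12, SE 0.06), Kdm5b (-0.02, SE 0.08), Asxl3 (0.15, SE 0.14), Mbd5 (0.17, SE 0.12) and Phf21a (-0.10, SE 0.08). These are a homeodomain protein, 5 SET-domain enzymes or relatives, a lysine demethylase, a Polycomb-related protein, a methyl-CpG-domain protein and a reader of unmethylated histone H3.

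**Figure D2:**
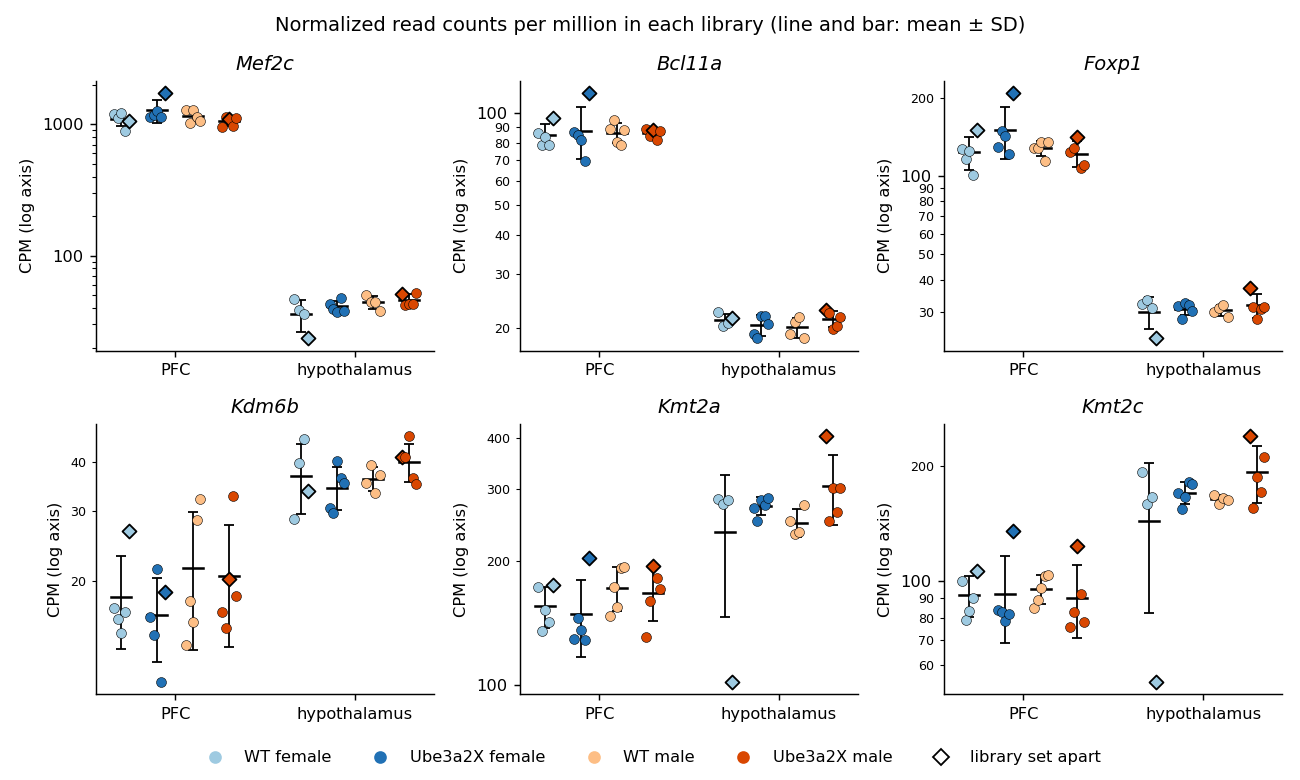
CPM on a log axis for 6 members in every library, PFC on the left and hypothalamus on the right of each panel, coloured by genotype and sex, with mean ± SD per group and diamonds for the 5 libraries set apart. Mef2c, Bcl11a and Foxp1 show no overlap between tissues, whereas for Kmt2a and Kmt2c the diamond of WT female 471 drops to 102 and 54.3 CPM.

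The same 13 mice gave both tissues. Higher PFC levels were seen in 13 of 13 of these mice for Mef2c, Foxp1, Bcl11a, Tcf4, Tbl1xr1, Sox5, Myt1l, Med13l, Chd3, Arid1b and Hdac4, and lower levels in 13 of 13 for Kdm6b, Kmt2c, Kmt2a, Trrap, Phf2 and Dnmt3a. Of the other called members, Ash1l and Smarcc2 were higher in PFC in 10 of the 13 mice and Ankrd11 in 6. Chd2 and Phf12 were higher in PFC in 2 mice, and Pogz and Chd8 in 1. How many of all genes ran 1 way in all 13 mice was not counted. With mouse as a fixed block, in the 26 libraries of these mice, 12 members were called in place of 24, 9 higher in PFC and 3 in the hypothalamus, all of them among the 24 and none with another sign. The 12 were Mef2c (4.86 under the block), Foxp1 (2.35), Bcl11a (2.14), Tcf4 (1.92), Tbl1xr1 (1.20), Sox5 (0.998), Myt1l (1.14), Med13l (0.81), Arid1b (0.57), Kdm6b (-1.07), Kmt2c (-0.74) and Dnmt3a (-0.37). Kmt2a was at -0.50 under the block (adjusted p = 0.0857) and was not called. The background under the block was 6047 of 14508 genes, or 41.7%. Each of these 12 was called under all 52 settings tried, including each library left out in turn. How many of all genes were called under every setting was not counted, so this does not set the members apart. Without the 5 libraries set apart, 26 members were called, against 76.2% of 14416 genes, 12 higher in PFC and 14 in the hypothalamus, and 22 of them were among the 24; Ankrd11 (0.01) and Ash1l (0.12) were lost. Smarcc2 was then at 0.12 and called, but it, Ankrd11 and Ash1l all lost their call when the PFC Ube3a2X male 258 or the PFC Ube3a2X female 468 alone was left out.

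Cell-type markers moved with the tissue difference. All 7 markers of cortical excitatory neurons were called higher in PFC, with a median log2 fold change of 6.45, and all 9 of hypothalamic neurons were called higher in the hypothalamus. All 6 oligodendrocyte markers were called higher in the hypothalamus, with sums of 954 to 3345 CPM in PFC and 3107 to 5357 in the hypothalamus, and 6 of 7 immediate early genes were called higher in PFC. All 4 tested markers of oligodendrocyte precursors, 4 of 6 of astrocytes, 4 of 5 of thalamus and both tested of choroid plexus and of pituitary were also called higher in the hypothalamus, and 5 of 5 of endothelium and mural cells and 4 of 6 of microglia in PFC, while those of inhibitory neurons (3 higher in PFC and 2 lower, of 7) and of striatum (2 and 2 of 5) were divided. Their part in the members' differences was not tested.

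Within PFC, the interaction of sex and genotype was asked of the 30 members that passed a filter on low variance; all 37 had passed the filter on low counts. The filter removed Pogz, Kmt5b, Kdm5b, Phf12, Dnmt3a, Ehmt1 and Trrap, whose levels varied little over the PFC libraries. None of the 30 was called by edgeR or by limma-voom after adjustment, and none of the 10900 genes tested was (0.0% in the background). At an unadjusted p under 0.05 there were 6 members, or 20%, against 2745 genes, or 25.2%, in the background. By direction, 5 were positive (13.5% of genes) and 1 negative (11.7%). The 5 with a positive interaction, meaning a larger or more positive effect of the transgene in males than in females, were Deaf1, Phf2, Chd3, Ankrd11 and Smarcc2, and the negative one was Tcf4. DESeq2 called 3 of the 30 (Deaf1, Phf2 and Smarcc2) and 646 of the 10900 genes (5.93%). By Storey's q-value, 4 were under 0.05 (the same 3 and Ankrd11), against 8.5% of genes. The study named Chd3, Deaf1, Mef2c, Smarcc2, Sox5 and Tcf4 among its PFC interaction genes, at a false discovery rate q under 0.05 with limma-voom. Here neither edgeR nor limma-voom called any of them. The study kept more genes after its filters than the 10900 tested here, and the source of the difference was not tested. Its qRT-PCR of interaction genes in separate mice covered no member. These genes were picked from these same libraries, so their values here are no independent evidence.

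Deaf1 had the largest interaction, 0.52 (SE 0.10, unadjusted p = 4.63e-05, adjusted p = 0.096). In males it measured 30.2, 30.95, 33.7, 34.1 and 34.8 CPM in WT and 33.3, 39.5, 42.2, 46.1 and 46.4 in Ube3a2X, and in females 28.7, 33.8, 34.5, 38.9 and 43.2 in WT and 24.8, 27.3, 28.5, 29.9 and 32.7 in Ube3a2X. Of the Ube3a2X males 4 of 5 lay above all WT males, and the Ube3a2X females were on the whole lower than the WT females, with overlap. Phf2 had an interaction of 0.49 (SE 0.14, unadjusted p = 0.00297, adjusted p = 0.0963). Phf2 in males measured 41.4, 41.7, 44.4, 46.6 and 51.2 CPM in WT and 41.6, 51.3, 53.000, 56.3 and 58.2 in Ube3a2X, and in females 41.4, 42.5, 42.9, 50.99 and 56.9 in WT and 36.7, 39.2, 40.4, 40.6 and 43.6 in Ube3a2X. Here too Ube3a2X males were mostly higher and Ube3a2X females mostly lower than WT of their sex, with overlap in both.

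Smarcc2 had an interaction of 0.38 (SE 0.11, unadjusted p = 0.00282, adjusted p = 0.0963). In males it measured 284, 301, 305, 311 and 374 CPM in WT and 325, 325, 327, 356 and 494 in Ube3a2X, and in females 306, 308, 309.6, 327 and 470.4 in WT and 296, 313, 331, 334 and 393 in Ube3a2X. Its highest values were those of libraries 258, 397 and 468, each set apart in its own group. Ankrd11 had 0.40 (SE 0.13, unadjusted p = 0.00577, adjusted p = 0.0994). Ankrd11 in males measured 213, 216, 220.3, 241 and 290.3 CPM in WT and 215, 226, 229.6, 265 and 429 in Ube3a2X, and in females 223, 226, 227, 233 and 347 in WT and 198, 215, 220.0, 227 and 370.4 in Ube3a2X. The same 3 libraries held its 3 highest values. Chd3 had 0.47 (SE 0.18, unadjusted p = 0.0151, adjusted p = 0.126), with 603 to 933 CPM in WT males and 720.5 to 1360.3 in Ube3a2X males, the highest again being 258.

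On the negative side, Tcf4 had -0.15 (SE 0.07, unadjusted p = 0.0419, adjusted p = 0.184). In males it measured 461, 497, 512, 531 and 534 CPM in WT and 415, 462, 472, 506 and 616 in Ube3a2X, and in females 431, 461, 464, 479 and 517 in WT and 488, 494, 497, 517 and 705 in Ube3a2X. The Ube3a2X female 468 was the highest and the Ube3a2X male 258 the next. Med13 had -0.20 (SE 0.10, unadjusted p = 0.0551, adjusted p = 0.207). Med13 in males measured 115, 134, 135, 136 and 137 CPM in WT and 102, 107, 121, 127 and 148 in Ube3a2X, and in females 109, 112, 115, 134 and 134 in WT and 119, 121, 133, 139.7 and 195 in Ube3a2X. Mef2c had -0.29 (SE 0.15, unadjusted p = 0.0605, adjusted p = 0.215). In males it measured 1026, 1057, 1126, 1277 and 1286 CPM in WT and 951, 962, 1092, 1116 and 1130.3 in Ube3a2X, and in females 893, 1062, 1118, 1191 and 1210.3 in WT and 1126, 1134, 1168, 1254 and 1719 in Ube3a2X. For both, library 468 was again the highest of the 20. Foxp1 had -0.19 (SE 0.11, unadjusted p = 0.0978, adjusted p = 0.274). Foxp1 in males measured 114, 128, 128, 135 and 136 CPM in WT and 107, 110.0, 124, 128 and 141 in Ube3a2X, and in females 101, 116, 125, 127 and 150.5 in WT and 122, 129.8, 142, 149 and 208 in Ube3a2X. Sox5, with -0.21 (SE 0.12, unadjusted p = 0.106, adjusted p = 0.286), ran from 52.3 to 94.8 CPM over the PFC libraries. The remaining members tested had interactions from -0.21 in Asxl3 to 0.25 in Kdm6b, and the smallest unadjusted p among them was 0.0933, for Med13l.

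**Figure D3:**
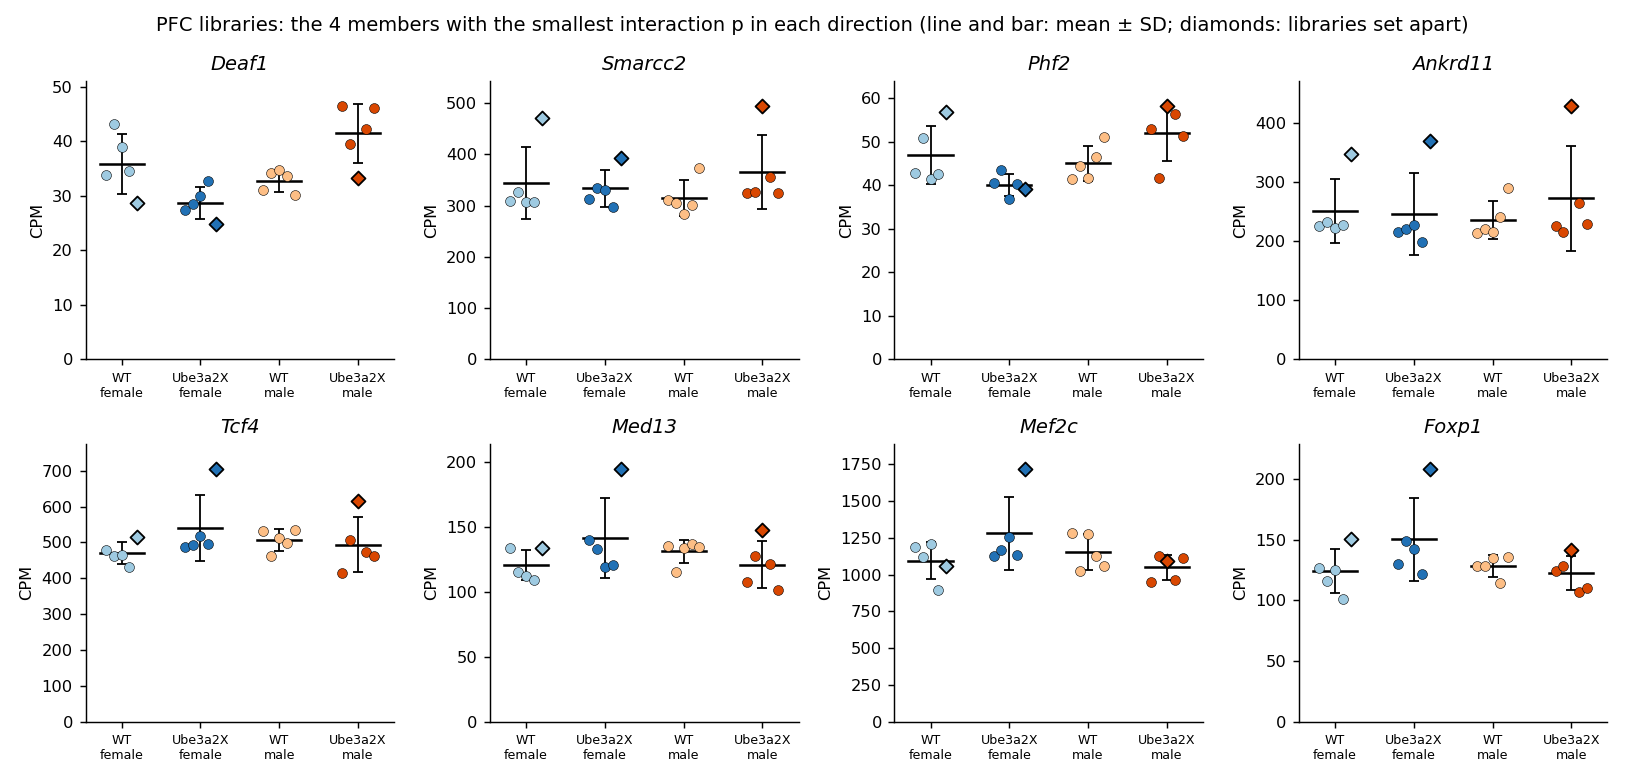
CPM in each of the 20 PFC libraries for the 4 members with the smallest interaction p in each direction, by group, with mean ± SD and diamonds for libraries 397, 468 and 258. Deaf1 spans 30.2 to 34.8 CPM in WT males and 33.3 to 46.4 in Ube3a2X males, while in each of the other panels a diamond marks the highest value.

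The count of 6 depended on single libraries. It fell to 1 without the WT female 397, against 5.68% of genes. It rose to 10 without the Ube3a2X male 253 (31% of genes), 12 without the Ube3a2X female 462 (32.5%) and 11 without the WT female 93 (34.3%). After adjustment, 4 members were called without 253 (Deaf1, Phf2, Smarcc2 and Ankrd11), against 9.56% of genes, 4 without 93 (the same genes, against 14.9%) and 2 without 462 (Deaf1 and Phf2, against 9.55%). With libraries 258, 397 and 468 all left out, 1 of 27 members tested had an unadjusted p under 0.05, against 107 of 11128 genes (0.962%). That member was Deaf1, and the interactions were then 0.42 for Deaf1 (unadjusted p = 0.00542), 0.03 for Phf2, 0.09 for Chd3, 0.08 for Ankrd11, 0.01 for Mef2c and 0.00254 for Med13. Smarcc2 and Tcf4 were not among the 27, so neither has a value without these libraries. Among the cell-type markers, 3 of 4 of oligodendrocyte precursors had a positive interaction at an unadjusted p under 0.05, as had 2 of 6 of astrocytes, 2 of 6 of microglia, 2 of 5 of thalamus, 2 of 6 of cortical excitatory neurons, 1 of 7 of inhibitory neurons and 1 of 5 of endothelium and mural cells. None of the 6 of oligodendrocytes did, and none of any list was negative at such a p or called; their part in the members' values was not tested.

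Across the members, the PFC interaction followed the GC content of the transcript. The 5 members with a positive interaction at an unadjusted p under 0.05 had a GC content of 54.3% (Smarcc2) to 57.1% (Phf2). Med13, Mef2c and Tcf4, all negative, had the lowest of the 37, at 40.5 to 40.9%. Pearson's r over the 30 members was 0.864 and Spearman's rho 0.861, where the points are genes that share the same 20 libraries. The same relation ran through all genes, with r = 0.588 over 10890. Of the 13 tested members above the members' median GC content, 12 had a positive interaction, with a median of 0.19, and of the 17 at or below it 5 had, with a median of -0.08. For the genotype effect averaged over sex, r over the members was -0.195, and for the interaction in the hypothalamus 0.235 over 35 members. The relation was not limited to the interaction: r over the members was 0.709 for the sex effect in PFC (0.141 over all genes), 0.479 for the sex effect in the hypothalamus (0.231) and -0.54 for the tissue difference (-0.0201).

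**Figure D4:**
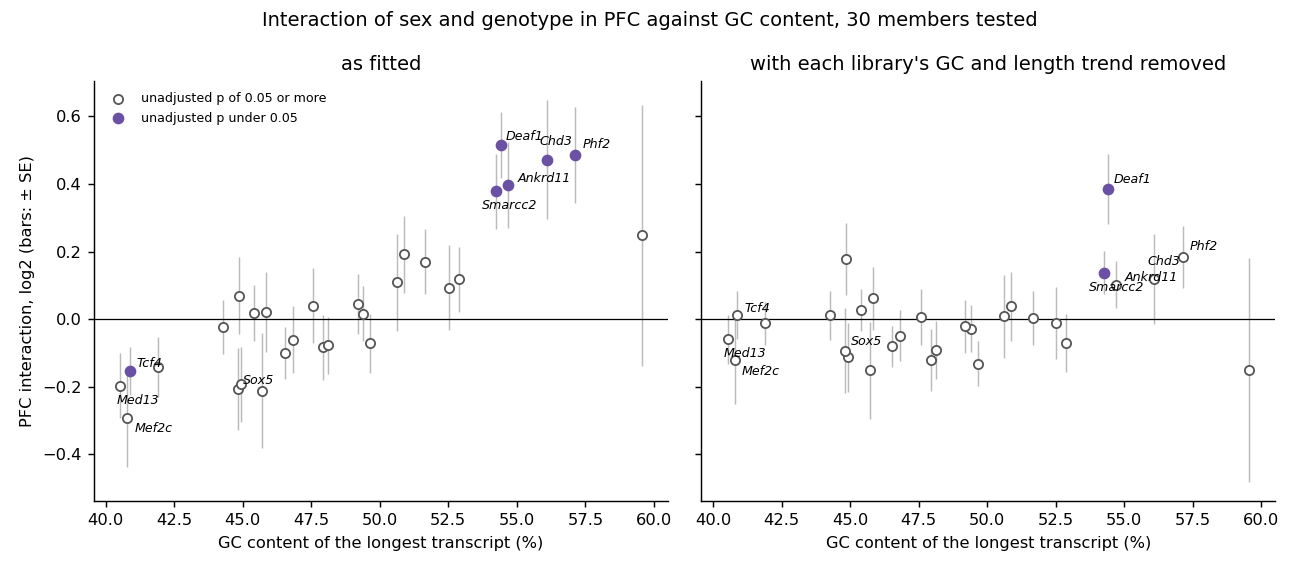
PFC interaction on the log2 scale (± SE) against the GC content of the longest transcript for the 30 members tested, as fitted on the left and after removal of each library's trend on GC content and length on the right. Filled points have an unadjusted p under 0.05, 6 on the left and 2 (Deaf1 and Smarcc2) on the right, and the rise from Med13 to Phf2 on the left is flatter on the right.

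Each library's own GC trend was then measured as the slope of its log2 levels, relative to the mean of its tissue, on GC content, over 10890 genes in PFC and 11855 in the hypothalamus, in log2 units per 10 percentage points of GC. In PFC the slopes were -0.01, -0.01, 0.05, 0.11 and 0.21 in WT females, -0.48, -0.11, -0.06, -0.02 and 0.02 in Ube3a2X females, -0.10, -0.08, -0.03, 0.01 and 0.06 in WT males and -0.21, -0.08, 0.20, 0.26 and 0.26 in Ube3a2X males. The slope differed between genotypes by 0.12 in males and -0.20 in females. AT dropout and the RNA integrity number (RIN) are given beside the slopes: the median AT dropout was 19.3 (WT) and 17.5 (Ube3a2X) among females, and 17.7 and 20.1 among males. The median RIN was 8.2 (WT) and 7.3 (Ube3a2X) among females, and 7.8 and 7.4 among males. Their part in the slopes was not tested. The interaction of the slopes, 0.32, had a two-sided exact permutation p of 0.0309 over 63504 arrangements, and 0.123 after adjustment over the 4 slope tests made. Without libraries 258, 397 and 468, left out after seeing the data, it was 0.32 (exact permutation p = 0.00533, not adjusted). With each library left out in turn it was 0.23 to 0.39, with an exact permutation p of up to 0.0671. The lowest value was that without the Ube3a2X female 468 (exact permutation p = 0.0545). In the hypothalamus the slopes ranged from -0.22 to 0.40, both in WT females, and the interaction was 0.14 (exact permutation p = 0.386 over 15876 arrangements).

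**Figure D5:**
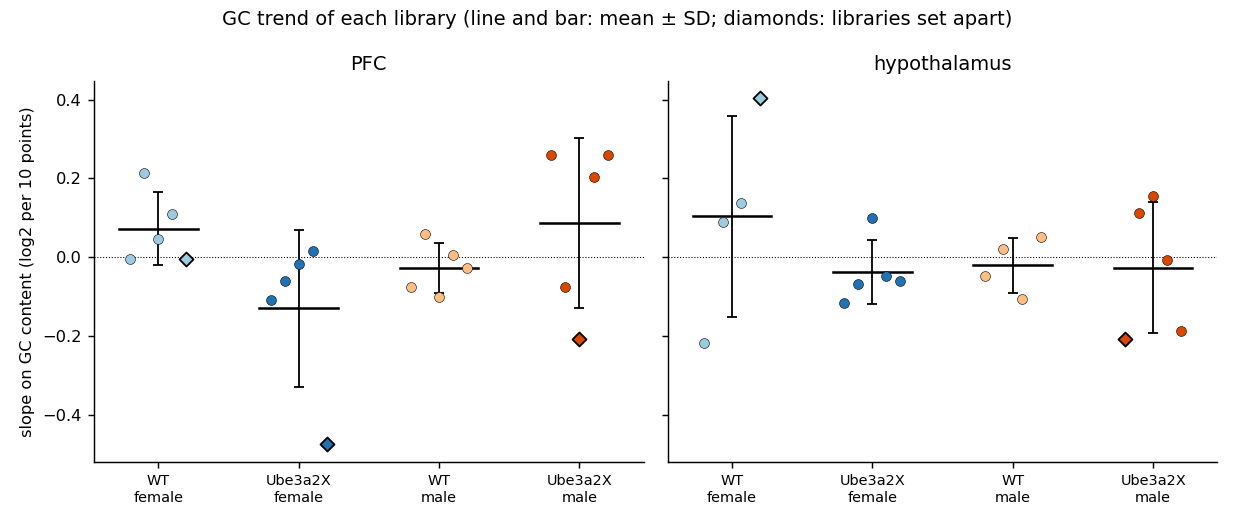
Slope of each library on GC content, in log2 units per 10 percentage points, by group in PFC and hypothalamus, with mean ± SD and diamonds for the 5 libraries set apart. In PFC the Ube3a2X females reach down to -0.48 and 3 Ube3a2X males lie at 0.20 to 0.26, while the WT males stay between -0.10 and 0.06.

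The members tracked these slopes. The gap between the median level of the 18 members above the members' median GC content and that of the other 19 ran from -0.28 in a Ube3a2X female to 0.22 in a Ube3a2X male of PFC, in log2 units. As a description over libraries that share their normalization, the gap and the slope had r = 0.847 over the 20 PFC libraries and 0.789 over the 18 of the hypothalamus. When each library's trend on GC content and length was removed before the fit, 2 members had an unadjusted p under 0.05 for the PFC interaction, against 9.97% of genes: Deaf1 at 0.39 (SE 0.10, unadjusted p = 0.00147) and Smarcc2 at 0.14 (SE 0.06, unadjusted p = 0.0435). Neither was called after adjustment. Phf2 was then at 0.18, Ankrd11 at 0.10, Chd3 at 0.12 and Tcf4 at 0.01. The correlation with GC content over the 30 members fell to r = 0.354. With each library's GC slope as a covariate instead, r was 0.601, 26 of the 30 members had a positive interaction, 12 of 13 above and 14 of 17 at or below the members' median GC content (medians 0.36 and 0.11), and 9 had an unadjusted p under 0.05, against 13.7% of genes. Whether the slopes arise in the tissue or in the preparation of the libraries was not tested.

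The effect of the transgene, averaged over the sexes, called no member in PFC by edgeR, limma-voom or DESeq2, and none of the 30 had an unadjusted p under 0.05, against 7.9% of the 10900 genes, of which 2 (0.0183%) were called. Without libraries 258, 397 and 468, 3 of 27 members had such a p, against 8.82% of genes. Within PFC males, 5 members had an unadjusted p under 0.05, all higher in Ube3a2X, against 18.3% of genes in either direction and 10.3% in this one: Chd3 (0.33, SE 0.12), Deaf1 (0.32, SE 0.07), Smarcc2 (0.22, SE 0.08), Phf2 (0.22, SE 0.10) and Ankrd11 (0.19, SE 0.09). Without libraries 258, 397 and 468, Deaf1 alone of the 27 members tested had such a p in males (0.23, unadjusted p = 0.0116), against 5% of genes. Chd3 was then at 0.20, Phf2 at 0.01 and Ankrd11 at 0.01, and Smarcc2 was not tested. Markers of other cells were also higher in Ube3a2X males of PFC at an unadjusted p under 0.05, 5 of 6 of oligodendrocytes (median 0.43 over the list), 3 of 4 of their precursors, 2 of 6 of astrocytes, 2 of 6 of microglia, 2 of 5 of endothelium and mural cells and 2 of 6 of cortical excitatory neurons. Their part in the members' values was not tested. None of the members was called by edgeR (0.0275% of genes) or limma-voom, and the edgeR quasi-likelihood adjusted p of Deaf1 was 0.0686. DESeq2 (2.25% of genes) and Storey's q-value (0.22% of genes) each called Deaf1. Within PFC females, 3 had an unadjusted p under 0.05, against 14.6% of genes in either direction and 7.37% in this one, all lower in Ube3a2X: Phf2 (-0.27, SE 0.11), Ankrd11 (-0.21, SE 0.10) and Deaf1 (-0.19, SE 0.07). Without those 3 libraries it was Deaf1 alone (-0.19, unadjusted p = 0.0423), against 2.29% of genes, with Phf2 at -0.02 and Ankrd11 at -0.07. In PFC females 2 of 6 markers of cortical excitatory neurons were lower in Ube3a2X and 1 higher at an unadjusted p under 0.05, as were 1 and 1 of 7 of inhibitory neurons, and 1 of 6 of microglia and 1 of 5 of thalamus were lower; their part was not tested. Among all members, none was called by edgeR (0.00917% of genes), limma-voom or DESeq2. The values within each sex come from the same fit as the interaction and share its libraries.

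In the hypothalamus, 35 members were tested, Tbl1xr1 and Bcl11a having varied too little. No member was called for the interaction by edgeR, limma-voom or DESeq2, and none of the 11869 genes was by any of them (0.0% in the background). An unadjusted p under 0.05 was reached by 2 members, against 6.91% of genes: Kmt2a, at 0.20 (SE 0.08), and Kmt5b, which methylates histone H4, at -0.16 (SE 0.07). Kmt2a measured 233, 236, 251 and 275 CPM in WT males and 252, 265, 302, 303 and 404 in Ube3a2X males, with 102, 276, 283 and 284 in WT females and 251, 270.0, 274, 283 and 286 in Ube3a2X females. Its lowest and highest values were those of libraries 471 and 238, both set apart. The fit adjusts for RIN and 2 surrogate variables. In the group means the sign of the Kmt2a interaction depended on the scale. Its mean log2 CPM was 7.96 in WT males, 8.23 in Ube3a2X males, 7.77 in WT females and 8.09 in Ube3a2X females, a slightly larger step in females, while its mean CPM was 249 (WT) and 305 (Ube3a2X) among males and 236 and 273 among females, a larger step in males. The fitted interaction was 0.17 with no surrogate variable (unadjusted p = 0.595), 0.16 without 471 (unadjusted p = 0.124), 0.16 without 238 (unadjusted p = 0.0588) and 0.23 without both (unadjusted p = 0.0205). Without both, 4 of the 23 members tested had such a p for the interaction, against 6.91% of genes, and Kmt5b was not tested. Kmt5b was at -0.11 without 238 (unadjusted p = 0.0857) and -0.21 with no surrogate variable (unadjusted p = 0.313), and it was not tested without 471. Averaged over the sexes, no member reached an unadjusted p under 0.05 for genotype, against 5.24% of genes. Within males 2 did, against 9.23%: Kmt2a (0.17, SE 0.06) and Adnp (-0.11, SE 0.05). Without 471 and 238, Kmt2a (0.18) and Asxl3 (0.21, unadjusted p = 0.0323) had such a p, against 10.7% of genes, and Adnp (-0.05, unadjusted p = 0.246) did not. In the same contrast all 6 oligodendrocyte markers were higher in Ube3a2X males at an unadjusted p under 0.05 (median 0.30), while 3 of 7 inhibitory neuron markers were lower and 1 higher, and their part was not tested. Within females none did, against 2.93%; without 471 and 238 Nsd1 did (-0.10, unadjusted p = 0.0226), against 6.38% of genes. None was called for genotype by edgeR (0.00843% of genes over both sexes and in females), limma-voom or DESeq2.

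Sex itself, averaged over genotype, called no member in either tissue by edgeR, limma-voom or DESeq2, with 10 genes (0.0917%) called in PFC and 272 (2.29%) in the hypothalamus. In PFC 5 members were higher in males at an unadjusted p under 0.05, against 8.84% of genes in either direction and 4.71% in this one: Kmt2a (0.20, SE 0.08), Phf2 (0.16, SE 0.08), Deaf1 (0.14, SE 0.05), Med13l (0.14, SE 0.05) and Chd2 (0.12, SE 0.05). Without libraries 258, 397 and 468, Kmt2a (0.21), Deaf1 (0.14) and Chd2 (0.13) had such a p, against 7.54% of genes, and Phf2 (0.13, unadjusted p = 0.0645) and Med13l (0.10, unadjusted p = 0.0604) did not. In the hypothalamus 7 had such a p, against 17.8% of genes. The 2 lower in males (9.99% of genes) were Asxl3 (-0.21, SE 0.07) and Kmt2a (-0.10, SE 0.04), and the 5 higher (7.83% of genes) were Deaf1 (0.12, SE 0.06), Kdm6b (0.12, SE 0.06), Ehmt1 (0.11, SE 0.04), Phf2 (0.09, SE 0.04) and Phf21a (0.09, SE 0.04). Cell-type markers moved as well at an unadjusted p under 0.05: 3 of 7 of inhibitory neurons and 2 of 5 of striatum (1 called) were lower in males, 3 of 4 of microglia and both tested of cortical excitatory neurons (1 called) were higher, and of 9 of hypothalamic neurons 3 were higher (1 called) and 2 lower. Of astrocytes and of choroid plexus 1 marker each was called higher, and 1 oligodendrocyte marker was lower and 1 of thalamus higher at such a p. Their part in the members' values was not tested. Asxl3 measured 8.86, 18.2, 18.2 and 19.5 CPM in WT females, 15.004, 19.4, 19.4, 20.3 and 20.5 in Ube3a2X females, 14.5, 14.6, 17.4 and 18.6 in WT males and 15.8, 17.1, 17.4, 17.4 and 23.7 in Ube3a2X males, so the sexes overlapped. It was called when the WT male 403 (5.57% of genes called) or the Ube3a2X female 417 (2.01%) was left out. The group means show the negative sign of Asxl3 in Ube3a2X mice only and that of Kmt2a in neither genotype: mean log2 CPM of Asxl3 was 3.95 in WT females and 4.01 in WT males, 4.23 in Ube3a2X females and 4.18 in Ube3a2X males, and that of Kmt2a was higher in males of both genotypes. With no surrogate variable the fitted sex effect was -0.08 for Asxl3 (unadjusted p = 0.548) and 0.07 for Kmt2a (unadjusted p = 0.669). Without libraries 471 and 238, with the surrogate variables, it was -0.18 and -0.11 (unadjusted p = 0.00606 and 0.0193), with 8 of 23 members at an unadjusted p under 0.05 against 24.6% of genes. Whether the sex effects of the members differ between the tissues was not tested.

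Whether the transgene acted differently in the tissues was tested directly over all 38 libraries. No member was called for the difference of the genotype effects or of the interactions, and none of the 14219 genes was (0.0% in the background). DESeq2 also called none in either test, while limma-voom called no member in either test and 3 and 1 of all genes. At an unadjusted p under 0.05, Trrap differed in its genotype effect between PFC and hypothalamus (-0.31, SE 0.15, against 8.66% of genes) and Deaf1 in its interaction (0.55, SE 0.21, against 3.19% of genes). Without the 5 libraries set apart, 4 members had such a p for the first test (5.61% of genes) and 7 for the second (10.99%).

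The other genes of the same complexes and families, 136 in all, were read the same way. Between tissues, 80 of the 135 tested were called, 37 higher in PFC and 43 in the hypothalamus, where 68.4% of all genes were called, 32.8% and 35.6% by direction. Of 22 further CHD and BAF subunits 13 were called, 7 higher in PFC, led by the BAF subunits Smarcd1 (1.16, SE 0.07), Bcl11b (2.48, SE 0.16) and Dpf1 (1.22, SE 0.11), and 6 higher in the hypothalamus, led by Chd7 (-1.03, SE 0.13), Dpf3 (-1.13, SE 0.14) and Chd6 (-0.66, SE 0.13). Of 28 histone methyltransferases and demethylases 15 were called, 5 in favour of PFC and 10 of the hypothalamus, where Kmt2b, the close paralog of Kmt2a, was among them (-0.46, SE 0.10). Of 27 acetyltransferases, deacetylases and corepressors 19 were called, 6 and 13, with Hdac9 (0.79, SE 0.11) higher in PFC and Hdac7 (-1.14, SE 0.13) in the hypothalamus. Of 31 Mediator genes 18 were called, 13 and 5, with the kinase Cdk19 (1.14, SE 0.09) on the PFC side and Med12 (-0.91, SE 0.14) on the other. Of 10 DNA methylation genes tested 6 were called, 2 and 4, with Tet1 (-0.81, SE 0.15), which oxidizes methylcytosine, lower in PFC. Of 20 paralogs of the factors and PHD proteins 12 were called, 5 and 7: Mef2a (1.24, SE 0.09) and Mef2d (1.01, SE 0.07) were higher in PFC as Mef2c was, while Myt1 (-1.80, SE 0.13) and St18 (-2.12, SE 0.23), the paralogs of Myt1l, were higher in the hypothalamus.

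Within a tissue, none of these 136 genes was called for genotype or for the interaction, 26 of 112 tested having an unadjusted p under 0.05 for the PFC interaction, 17 positive and 9 negative, against 25.2% of all genes, 13.5% and 11.7% by direction. For sex, 2 of 112 tested were called in PFC and 2 of 122 in the hypothalamus, against 0.0917% and 2.29% of all genes. They were the same X-linked demethylases in both tissues, which are known to escape X inactivation. Kdm6a fell by 0.41 on the log2 scale (SE 0.06) in males of PFC and by 0.65 (SE 0.05) in the hypothalamus, and Kdm5c by 0.33 (SE 0.05) and 0.39 (SE 0.05). Of their autosomal relatives among the members, Kdm6b was not called for sex in either tissue. Kdm5b was not called in the hypothalamus and was not tested in PFC.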

How the data were processed

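PolyA RNA of 38 libraries was sequenced as stranded paired-end reads. The authors aligned reads with STAR to mm10 (GRCm38) and deposited featureCounts counts of reads per gene, raw; the strand setting of the counting is not given in the sources used here. They also deposited a table of library quality made with Picard and a Bioanalyzer, with aligned-read counts, scores (RNA integrity number, RIN, and AT dropout), fractions of bases by annotation class and ratios (coverage evenness and bias); 28 of its columns were not used. One of its rows bears another mouse number than its sample name and was joined by the name.

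Each tissue was fitted alone with edgeR 4.0.16 (quasi-likelihood, TMM, Benjamini-Hochberg adjustment over all genes tested, called at adjusted p under 0.05). As in the study's own model, the terms were the sex and genotype groups, RIN and 2 surrogate variables (sva 3.50.0). Genes with under 100 reads in 2 or more libraries, and then the 15% of lowest variance, were left out. The tissue difference, PFC minus hypothalamus, was fitted over all 38 libraries with RIN and no variance filter. RIN went in part with tissue: its group medians were 7.3 to 8.2 in PFC and 8.9 to 9 in the hypothalamus. The interaction is the Ube3a2X minus WT difference in males less that in females, and sex effects are male minus female. limma 3.58.1 and DESeq2 1.42.0 were alternatives, as were other filters, covariates and each library left out in turn. The count scripts were tested on simulated data. The slope of each library on GC content was compared by exact permutation of genotype within sex. GC and exon lengths came from GENCODE vM21 on GRCm38, and promoters from RefSeq on GRCm38.p6. A mouse number shared by both tissues marks 1 animal, as the labels give it, which holds for 13 of 25 mice; their deviations from the group means correlated with r of -0.46 to 0.35 (median -0.04) between tissues.

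All 37 members are named; library values are given for called members, or where none was called for those with the smallest unadjusted p, at most 4 per direction, and at most 3 called genes per direction of each related list. The members and lists were chosen with earlier results of these data known. P-values within a tissue measure the spread between these animals. Those of the fits over both tissues measure the spread between libraries. Except under a mouse block, they ignore that 13 of the 25 mice gave both tissues.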

Additional observations from a re-analysis of the deposited data

Results flagged for a closer look

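Values of 15 members and the GC slopes were searched for single libraries far from the rest of their group of 4 or 5, by Dixon's criterion. It marked 18 member values and 1 slope; chance alone marks about 1 in 20 groups, and the members share their libraries, so the marks are not independent. The hypothalamic Ube3a2X male 238 stood out for Ankrd11 at 305 CPM (the others 219 to 235) and Chd3 at 711 CPM (the others 519 to 537). The hypothalamic WT female 471 stood out for Ankrd11 at 127 CPM (the others 223 to 233), Dnmt3a at 47.2 CPM (the others 91.0 to 95.6), Kmt2a at 102 CPM (the others 276 to 284), Kmt2c at 54.3 CPM (the others 159 to 192) and Tcf4 at 93.7 CPM (the others 137 to 146). The PFC Ube3a2X female 468 stood out for Ankrd11 at 370.4 CPM (the others 198 to 227), Kmt2a at 204 CPM (the others 129 to 145), Kmt2c at 134 CPM (the others 78.5 to 83.7), Mef2c at 1719 CPM (the others 1126 to 1254), Tcf4 at 705 CPM (the others 488 to 517) and its GC slope at -0.48 log2 units per 10 points of GC (the others -0.11 to 0.02). The PFC WT female 397 stood out for Ankrd11 at 347 CPM (the others 223 to 233), Kdm6b at 26.8 CPM (the others 14.8 to 17.1) and Smarcc2 at 470.4 CPM (the others 306 to 327). The PFC WT male 251 stood out for Med13 at 115 CPM (the others 134 to 137). The hypothalamic WT male 251 stood out for Phf2 at 67.5 CPM (the others 58.0 to 58.9). The PFC Ube3a2X male 258 stood out for Smarcc2 at 494 CPM (the others 325 to 356). The hypothalamic libraries 238 and 471 and the PFC libraries 258, 397 and 468 are those set apart in the report.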

How the results depend on the processing

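Of the tissue differences, 12 members held under every setting, a count not made over all genes, and no called member changed sign. With mouse as a replicate block the count of called members was 12 in place of 24; the random block gave 22. Other counts of called members for the tissue difference stayed within 1.5 times of 24, 19 to 25 with 1 library left out. The share of all genes called moved with the setting too. It was 68.4% in the main fit, 41.7% under the fixed mouse block and 76.2% without the libraries set apart. For the PFC interaction, DESeq2 called 3 members, Storey's q-value 4, and leaving out 1 library 0 to 4, against 0 to 14.9% of genes. The 6 members at an unadjusted p under 0.05 (25.2% of genes) became 12 with filterByExpr (21% of genes), 11 with no filter on low counts (14.3%), 1 with 3 surrogate variables (4.51%), 2 with quality components as covariates (3.29%), 2 with the GC and length trend removed (9.97%), 3 with that and no variance filter (10.1%), 1 without the libraries set apart (0.962%), and 1 to 12 with 1 library left out (5.68 to 34.3% of genes). Within PFC males DESeq2 and Storey's q-value each called 1 member (2.25% and 0.22% of genes), and leaving out 1 library 0 to 1 (Deaf1 without the WT female 259, 0.165% of genes; 0.00917 to 0.33% over all libraries); for sex in the hypothalamus leaving out 1 library called 0 to 1, against 0.699 to 5.57% of genes. The interaction turned positive for Tcf4 with the GC slope as covariate (0.092), with the trend removed (0.011) and with that and no variance filter (0.00094), for Med13 with the GC slope (0.070) and without the libraries set apart (0.0025), and for Mef2c with 3 surrogate variables (0.024) and without those libraries (0.0082). The GC slope interaction in PFC was 0.23 to 0.39 with 1 library left out and its exact permutation p was above 0.05 in 7 of the 20 cases. The PFC genotype difference in slope was -0.065 to 0.000216, turning positive without the Ube3a2X female 468 (0.000216), and 0.027 without the libraries set apart. The cause was not tested. The settings that leave out the libraries set apart, that use all counted reads as library size and that remove the trend with no variance filter were chosen after seeing the data. The lowest count of a member in a library was 368 reads, and how the calls depend on depth was not tested.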
